A study of Mus musculus with 9 samples.

Results

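The endoplasmic reticulum chaperones described here are 10 genes whose products fold newly made secretory and membrane proteins: Hspa5, Hsp90b1, Calr, Canx, Pdia3, Pdia4, Pdia6, Sdf2l1, Creld2 and Manf. They were taken by gene name from a table of 21959 genes, and each name matched 1 gene. Messenger RNA was measured by sequencing total RNA from 9 libraries of DC2.4, an established dendritic cell line of the mouse. The groups were OMVSSDC, ZJDC and PBSDC, with 3 libraries in each. According to the study's description, DC2.4 cells were treated with engineered extracellular vesicles and immune-related genes were of interest. The labels do not spell out OMVSS or ZJ, nor do they give a dose, a time of treatment or the group that received the vesicles. PBS is a usual abbreviation of phosphate-buffered saline, and PBSDC was used as the reference. Separate cultures for the libraries within a group are not mentioned, so p-values measure the spread between these libraries, which may be technical.

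Proteins that enter the endoplasmic reticulum (ER) are held in solution by chaperones while sugars are attached and disulfide bonds form. Hspa5 encodes BiP, the HSP70-type chaperone of the ER lumen, which also keeps the stress sensors of the unfolded protein response inactive by binding them. When unfolded protein accumulates, the transcription factors ATF6 and XBP1 raise the chaperone genes together, and they do so through the ER stress response element (ERSE) of the promoters. In dendritic cells, calreticulin, ERp57 (the product of Pdia3) and tapasin also form the complex that loads peptides onto MHC class I molecules.

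The promoter sequences show what these genes share before any level is compared. RefSeq windows of 250 bases before to 50 bases after the annotated start (GRCm38.p6) were found for 9 of the 10 genes, and not for Manf. The ERSE was searched as CCAAT, 9 bases of any kind and CCACG, on both strands. It was present in 6 of the 9 windows (66.7%), those of Hspa5, Hsp90b1, Calr, Canx, Pdia6 and Creld2, against 39 of 32851 windows of all genes (0.119%). With 1 mismatch allowed in the CCACG part, it was present in 8 of the 9 windows (88.9%), now also those of Pdia3 and Pdia4, against 0.998% of all windows. Sdf2l1 had no match of either kind. The ERSE is known from the promoters of such ER chaperone genes, so a high share in this list was likely beforehand. The share describes these windows and is no independent result. Each match is shown in the direction CCAAT to CCACG, with its position counted from the annotated start at 0. Capitals mark the letters that equal the motif, and the lower-case letters between the parts are free.
Hspa5 at -65 to -47: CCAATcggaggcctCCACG
Hsp90b1 at -212 to -194: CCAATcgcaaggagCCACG
Hsp90b1 at -172 to -154: CCAATcggaactgtCCAgG
Hsp90b1 at -107 to -89: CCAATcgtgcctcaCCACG
Calr at -162 to -144: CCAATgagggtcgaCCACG
Canx at -145 to -127: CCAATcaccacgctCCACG
Pdia3 at -29 to -11: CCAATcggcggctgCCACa
Pdia4 at -108 to -90: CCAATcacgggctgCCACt
Pdia6 at -98 to -80: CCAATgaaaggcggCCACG
Creld2 at -126 to -108: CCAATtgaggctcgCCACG
The Hspa5 match reads along the gene's own strand and lies nearest to the start among the exact matches. Hsp90b1 carried 2 exact matches and 1 more with a mismatch, the most among these windows. The matches of Calr, Pdia4 and Creld2 read on the strand opposite to the gene. So do those of Hsp90b1 at -172 to -154 and at -107 to -89. In Pdia3 and Pdia4 the last letter of the motif is the one that differs.

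The 250 bases before the start are printed for the following 3 genes because Hspa5 was higher in OMVSSDC than in PBSDC while Calr and Hsp90b1 were lower, although all of them hold the exact element. Capitals mark ERSE matches with up to 1 mismatch in the CCACG part and, in Hspa5, also the TGACGTG core of the unfolded protein response element (UPRE). The windows are chr2:34771840-34772089 on the plus strand for Hspa5, chr8:84846932-84847181 on the minus strand for Calr and chr10:86705445-86705694 on the minus strand for Hsp90b1, in GRCm38.p6, each read along the gene's strand.
Hspa5: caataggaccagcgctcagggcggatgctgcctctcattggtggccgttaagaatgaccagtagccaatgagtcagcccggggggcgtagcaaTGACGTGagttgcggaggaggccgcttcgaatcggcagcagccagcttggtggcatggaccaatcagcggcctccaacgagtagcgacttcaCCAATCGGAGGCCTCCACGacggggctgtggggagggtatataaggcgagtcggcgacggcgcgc
Calr: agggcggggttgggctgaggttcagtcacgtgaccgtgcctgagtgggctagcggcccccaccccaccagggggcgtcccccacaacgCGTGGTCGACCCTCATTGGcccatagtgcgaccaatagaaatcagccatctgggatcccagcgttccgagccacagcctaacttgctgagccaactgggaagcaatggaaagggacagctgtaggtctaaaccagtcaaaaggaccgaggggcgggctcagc
Hsp90b1: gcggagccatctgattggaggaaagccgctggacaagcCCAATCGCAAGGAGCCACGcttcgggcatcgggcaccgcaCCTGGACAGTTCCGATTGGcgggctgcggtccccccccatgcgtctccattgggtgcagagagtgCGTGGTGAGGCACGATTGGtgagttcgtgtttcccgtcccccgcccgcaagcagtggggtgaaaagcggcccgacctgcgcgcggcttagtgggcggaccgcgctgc
The UPRE core, searched on both strands, was present in Hspa5 alone among the 9 windows, at -157 to -151, against 2.01% of all windows. The CCAAT box by itself, which forms part of every ERSE match, was present in all 9 windows and in 37.4% of all windows. ERSE-II (ATTGG, 1 base, CCACG) was in none of the 9 windows and in 0.0365% of all. The C/EBP-ATF composite element (TGATG, any base, AA), known for the amino acid response arm, was in none of the 9 and in 3.97% of all. A match describes letters in the window and is not evidence of binding.

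**Figure D1:**
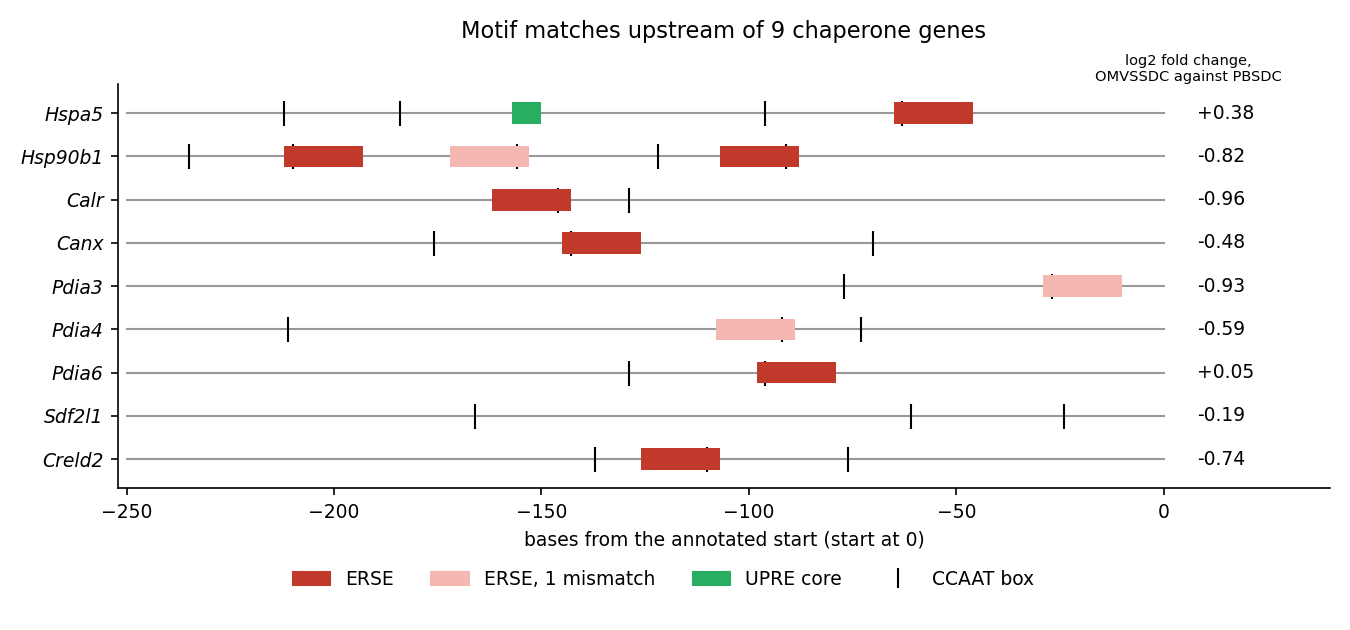
Motif matches in the 250 bases before the annotated start of 9 chaperone genes, with position in bases from the start on the x axis and the log2 fold change of OMVSSDC against PBSDC at the right. Dark bars are exact ERSE matches, pale bars matches with 1 mismatch, the bar in Hspa5 at -157 is the UPRE core and ticks are CCAAT boxes. Hspa5 at 0.38 and Calr at -0.96 both have an exact match.

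Library totals ranged from 12784931 to 18388959 counts, and the 10 genes took 85450 to 153799 counts of a library. The smallest single count of a member was 626 (Creld2), so counting error was small beside the differences called. All 10 passed the filter on low counts that left 11568 genes to test. Of 13 dendritic and myeloid marker genes all were detected, 12 of them at a mean of at least 1 CPM, the count scaled to the library size. They summed to 3859 to 4472 CPM in OMVSSDC, 4180 to 4295 CPM in ZJDC and 4787 to 4908 CPM in PBSDC. Single markers went both ways by the test described below. Of 12 tested, 7 were higher and 4 lower in OMVSSDC than in PBSDC (median log2 fold change 0.20). In ZJDC 5 were higher and 4 lower (median 0.08). Plasma and B cell markers, which matter because plasma cells hold much ER, summed to 5.14 to 9.88 CPM in OMVSSDC, 7.12 to 8.16 CPM in ZJDC and 9.62 to 10.3 CPM in PBSDC. Cd3e, Cd8a, Nkg7 and Klrb1c of the T and NK cell markers were at 0 in every library. Heart and brain markers summed to 4.36 to 18.2 CPM in OMVSSDC, 16.7 to 22.2 CPM in ZJDC and 32.3 to 35.1 CPM in PBSDC, while fibroblast and endothelial markers summed to 10.2 to 23.8 CPM in OMVSSDC, 14.4 to 17.7 CPM in ZJDC and 26.1 to 29.0 CPM in PBSDC. The part of these marker lists in the results was not tested. Within OMVSSDC, replicates 1 and 2 stood apart from replicate 3. The heart and brain markers, 7 of them tested, were split in the same way. Their median log2 fold change against PBSDC was -4.999 without replicate 3. With replicate 3 as the only OMVSSDC library it was -0.3021. For the fibroblast and endothelial markers these medians were -2.357 and 0.5769. Contrasts of replicates 1 and 2 with replicate 3 therefore also carry this marker difference, whose cause was not tested. The sums of both these marker lists were also higher in every PBSDC library than in any OMVSSDC or ZJDC library. The comparisons with PBSDC therefore carry a difference in these markers too, and its cause was not tested either. Values without replicate 3, or with it as the only OMVSSDC library, are given beside many of the results. The first setting leaves 2 OMVSSDC libraries. In OMVSSDC against ZJDC, 3296 genes were then lower and 3243 higher, in place of 127 and 99. Its adjusted p-values and calls therefore rest on a spread that left out replicate 3 and call for caution. The second setting takes the spread from ZJDC and PBSDC and assumes that the lone library varies like them. Its results are therefore given as values without a test, except in the summaries of kept and turned results in the last section.

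Measured as FPKM, the authors' counts per gene length and library total, the order of the chaperones differed between the groups. Among all genes they ranked from 33 (Hspa5) to 1176 (Creld2) in OMVSSDC, from 47 (Calr) to 1342 (Creld2) in ZJDC and from 21 (Calr) to 670 (Creld2) in PBSDC. In OMVSSDC, Hspa5 was the highest of the 10 at 529 ± 59.2 FPKM (SD, n = 3), which ranked 33 among all genes, followed by Calr at 377 ± 46.7 FPKM and Pdia3 at 279 FPKM. In ZJDC, Calr at 397 ± 16.6 FPKM and Hspa5 at 396 ± 5.64 FPKM overlapped at the top. In PBSDC, Calr led at 674 ± 26.6 FPKM, rank 21 among all genes, before Pdia3 at 488 FPKM and Hspa5 at 370 ± 18.1 FPKM. Below them in OMVSSDC came Canx, Pdia6 and Hsp90b1 at 204, 191 and 186 FPKM, with neighbours that overlapped between libraries. The same 3 genes ran Hsp90b1, Canx, Pdia6 in ZJDC (220, 202 and 157 FPKM) and in PBSDC (303, 261 and 169 FPKM), without overlap between neighbours. Pdia4, Manf, Sdf2l1 and Creld2 followed in this order in every group, from 94.7 to 41.0 FPKM in OMVSSDC, from 89.9 to 35.0 FPKM in ZJDC and from 130 to 62.4 FPKM in PBSDC. In OMVSSDC, Manf and Sdf2l1 overlapped, as did Sdf2l1 and Creld2.

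The make-up of the pool therefore differed along with its size. The 10 genes took 0.720% to 0.728% of all counts in OMVSSDC libraries, 0.668% to 0.682% in ZJDC libraries and 0.866% to 0.930% in PBSDC libraries. Hspa5 made up 27.6%, 27.4% and 22.7% of the summed FPKM of the 10 genes in OMVSSDC replicates 1, 2 and 3. Its share was 20.3% to 21.2% in ZJDC and 13.95% to 14.3% in PBSDC, and no library of one group overlapped another group. The ratio of Hspa5 to Calr, in FPKM, was 1.61, 1.60 and 1.07 in OMVSSDC, 0.947, 0.995 and 1.06 in ZJDC and 0.540, 0.553 and 0.556 in PBSDC. OMVSSDC replicate 3 thus lay just above the ZJDC libraries, and replicates 1 and 2 lay far above them.

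**Figure D2:**
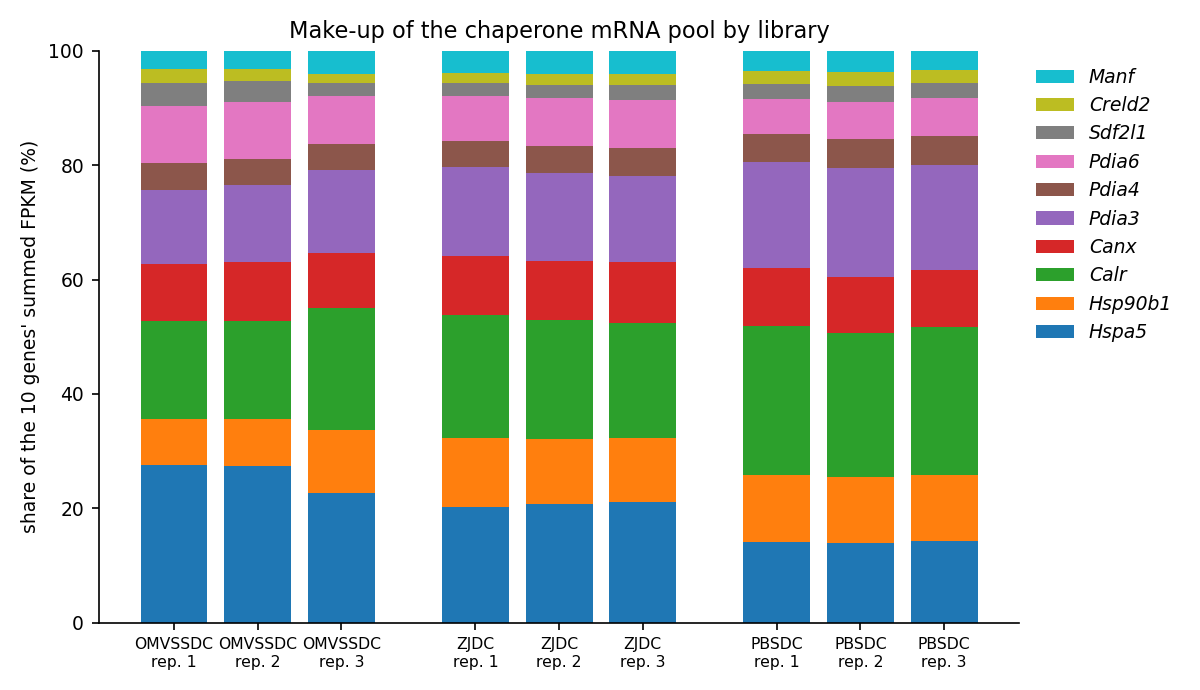
Share of each chaperone in the summed FPKM of the 10 genes (percent, y axis) in each of the 9 libraries (x axis). The lowest segment, Hspa5, takes 22.7% to 27.6% in OMVSSDC, 20.3% to 21.2% in ZJDC and 13.95% to 14.3% in PBSDC.

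OMVSSDC was compared with PBSDC with edgeR's quasi-likelihood test over all 11568 genes, with Benjamini-Hochberg adjustment and a threshold of 0.05. Of the 10 chaperones, 7 were lower and 1, Hspa5, was higher in OMVSSDC. Among all tested genes 30.2% were lower and 33.4% were higher. The libraries of both groups did not overlap for 8 of the 10, against 65.7% of all tested genes. The median log2 fold change was -0.54 over the 10 chaperones and 0.05 over all tested genes. These levels are bulk levels, in which fewer cells making a message and less of it per cell cannot be told apart.

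ZJDC against PBSDC gave 8 chaperones lower and 0 higher. By DESeq2, too, 0 chaperones were higher in ZJDC, and by edgeR 0 were higher at an unadjusted p under 0.05. Among all tested genes 27.1% were lower and 27.6% higher. Groups did not overlap for 9 of the 10, against 72.2% of all genes. The median was -0.56 over the 10 and 0.01 over all tested genes. Both comparisons use the same 3 PBSDC libraries, so their values are given side by side and not as 2 independent results.

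**Figure D3:**
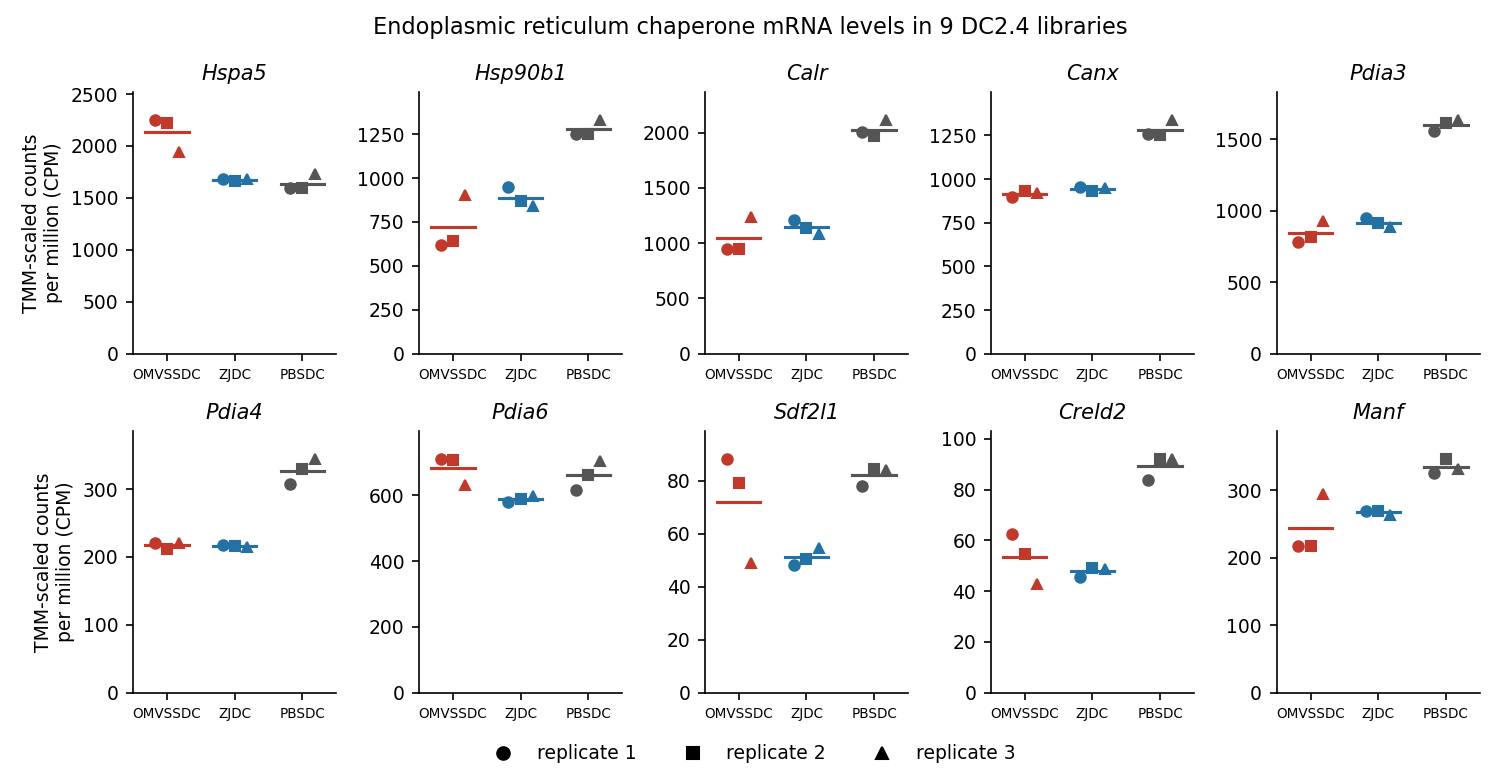
TMM-scaled CPM (y axis, from 0) of each chaperone in the libraries of OMVSSDC, ZJDC and PBSDC (x axis). Points are libraries, with the marker giving the replicate, and lines are group means. Hsp90b1, Calr, Canx, Pdia3, Pdia4, Creld2 and Manf lie lower in all libraries of OMVSSDC and ZJDC than in PBSDC. Hspa5 lies highest in OMVSSDC.

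Hspa5 was the one chaperone that was higher. BiP, its product, binds exposed hydrophobic stretches in an ATP-driven cycle. Hspa5 had 2250, 2223 and 1939 CPM in OMVSSDC libraries, 1679, 1661 and 1680 CPM in ZJDC libraries and 1591, 1597 and 1727 CPM in PBSDC libraries. All OMVSSDC libraries lay above every library of the other groups, while ZJDC lay within the range of PBSDC. OMVSSDC exceeded PBSDC by 0.38 on the log2 scale (SE 0.0685, adjusted p = 0.00071), or 30.5%. Between ZJDC and PBSDC the difference was 0.03 and did not pass (SE 0.0685, adjusted p = 0.726). With replicate 3 as the only OMVSSDC library, the value against PBSDC was 0.24.

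Hsp90b1 encodes GRP94, the HSP90-type chaperone of the ER, whose clients include Toll-like receptors and integrins. It had 619, 643 and 906 CPM in OMVSSDC, 949, 871 and 838 CPM in ZJDC and 1251, 1252 and 1330 CPM in PBSDC. Every library of OMVSSDC and ZJDC lay below PBSDC, and replicate 3 of OMVSSDC lay among the ZJDC libraries. The log2 fold change was -0.82 (SE 0.129, adjusted p = 0.000302) for OMVSSDC against PBSDC and -0.53 (adjusted p = 0.00573) for ZJDC against PBSDC. It was -1.02 for OMVSSDC against PBSDC without OMVSSDC replicate 3 and -0.50 with that replicate alone.

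Calr and Canx encode calreticulin and calnexin, the lectin chaperones that hold glycoproteins by a trimmed sugar, in the lumen and in the membrane. Calr had 951, 945 and 1237 CPM in OMVSSDC, 1207, 1138 and 1084 CPM in ZJDC and 2006, 1966 and 2115 CPM in PBSDC. Both groups lay far below PBSDC, with log2 fold changes of -0.96 (SE 0.102, adjusted p = 2.0e-05) in OMVSSDC and -0.83 (adjusted p = 7.6e-05) in ZJDC, that is changes of -48.5% and -43.7%. For OMVSSDC it was -1.10 without replicate 3 and -0.72 with that replicate alone. Canx had 896, 933 and 922 CPM in OMVSSDC, 957, 932 and 949 CPM in ZJDC and 1256, 1250 and 1338 CPM in PBSDC. Its log2 fold changes of -0.48 and -0.44 were smaller (adjusted p = 2.8e-05 and 7.7e-05), and its OMVSSDC libraries lay close together. The ratio of Canx to Calr, in FPKM, was 0.458 to 0.606 in OMVSSDC, 0.487 to 0.537 in ZJDC and 0.384 to 0.390 in PBSDC.

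The 3 protein disulfide isomerases, which make and rearrange disulfide bonds, did not move alike. Pdia3, which works with the lectin chaperones on glycoproteins, had 783, 814 and 926 CPM in OMVSSDC, 946, 915 and 884 CPM in ZJDC and 1557, 1613 and 1635 CPM in PBSDC. It fell by 0.93 on the log2 scale in OMVSSDC (SE 0.0709, adjusted p = 2.0e-06) and by 0.81 in ZJDC (adjusted p = 7.9e-06). Pdia4 had 220.0, 212 and 221 CPM in OMVSSDC, 217, 215 and 214 CPM in ZJDC and 307, 330 and 344 CPM in PBSDC, and fell by 0.59 and 0.60 (adjusted p = 1.7e-05 and 2.1e-05). The ZJDC libraries of Pdia4 lay within the narrow range of the OMVSSDC libraries. Pdia6, which also acts on the stress sensor IRE1, had 711, 709 and 633 CPM in OMVSSDC, 581, 588 and 599 CPM in ZJDC and 618, 662 and 705 CPM in PBSDC. Its OMVSSDC libraries overlapped PBSDC (0.05, SE 0.0698, adjusted p = 0.563), and its ZJDC libraries lay just below PBSDC without passing the test (-0.17, SE 0.0699, adjusted p = 0.0655). Without OMVSSDC replicate 3, Pdia6 was higher in OMVSSDC than in PBSDC (0.10, adjusted p = 0.0434). The ZJDC difference passed under RLE scaling (adjusted p = 0.0472) and DESeq2 (adjusted p = 0.0324), among others. The ratio of Pdia6 to Pdia3, in FPKM, was 0.573 to 0.761 in OMVSSDC, 0.514 to 0.568 in ZJDC and 0.333 to 0.361 in PBSDC.

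**Figure D4:**
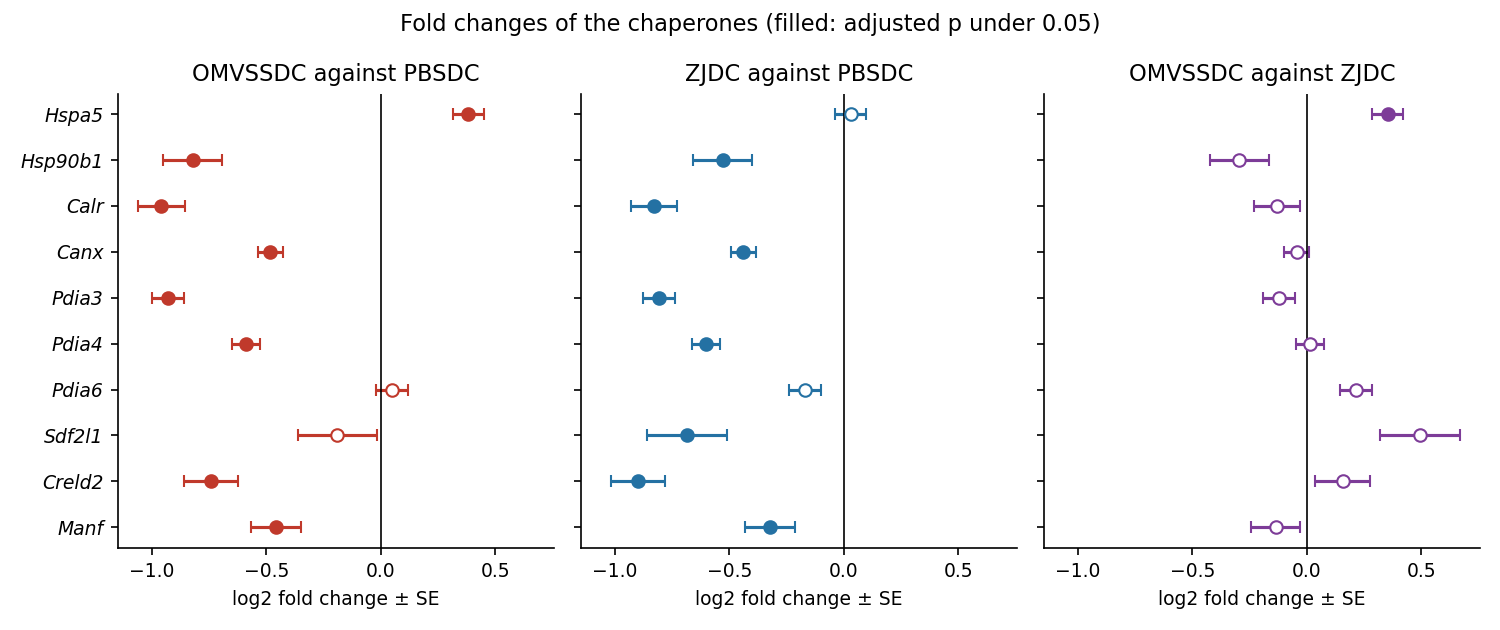
Log2 fold change with its standard error (x axis) of the 10 chaperones (y axis) in the 3 comparisons, from edgeR with all 9 libraries. Filled points have an adjusted p under 0.05: Hspa5 at 0.38 is the one on the right in OMVSSDC against PBSDC, and the one filled point, at 0.35, in OMVSSDC against ZJDC.

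Sdf2l1, Creld2 and Manf encode small ER proteins, known as targets of the unfolded protein response. SDF2L1 works with BiP and its J-domain partners, and MANF can be secreted and binds BiP. Sdf2l1 had 88.3, 79.2 and 49.0 CPM in OMVSSDC, 48.4, 50.7 and 54.5 CPM in ZJDC and 77.9, 84.7 and 84.3 CPM in PBSDC. OMVSSDC replicates 1 and 2 lay among or above the PBSDC libraries and replicate 3 lay among the ZJDC libraries. The group difference from PBSDC was -0.19 in OMVSSDC (SE 0.172, adjusted p = 0.356) and -0.68 in ZJDC (SE 0.174, adjusted p = 0.00734). For OMVSSDC against PBSDC it was 0.02 without replicate 3 (adjusted p = 0.768), -0.75 with replicate 3 alone and -0.50 with a trend on gene length removed (adjusted p = 0.00406). At 1108 bases, Sdf2l1 is the shortest of the 10.

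Creld2 had 62.6, 54.5 and 42.9 CPM in OMVSSDC, 45.7, 49.0 and 48.8 CPM in ZJDC and 83.6, 91.9 and 92.0 CPM in PBSDC. It fell by 0.74 in OMVSSDC (SE 0.118, adjusted p = 0.000342) and by 0.90 in ZJDC (SE 0.119, adjusted p = 0.00013), with no overlap with PBSDC. The OMVSSDC value was -0.61 without replicate 3 and -1.06 with that replicate alone. Manf had 218, 218 and 295 CPM in OMVSSDC, 269, 270.0 and 264 CPM in ZJDC and 326, 346 and 331 CPM in PBSDC. It fell by 0.46 in OMVSSDC (SE 0.108, adjusted p = 0.00401) and by 0.32 in ZJDC (adjusted p = 0.0278). With replicate 3 as the only OMVSSDC library the OMVSSDC difference was -0.19. The ZJDC difference lost its call when any 1 PBSDC or ZJDC library was left out, with values of -0.34 to -0.30 and adjusted p of 0.0565 to 0.0839. By edgeR it passed with only ZJDC and PBSDC in the fit (-0.31, adjusted p = 2.4e-07). It also passed without OMVSSDC replicate 3 (-0.32, adjusted p = 2.2e-08). Manf overlaps Dcaf1 on the opposite strand (656 to 826 counts in OMVSSDC, 768 to 1074 in ZJDC, 842 to 1116 in PBSDC) and Rbm15b on its own strand. Pdia3 overlaps Catsper2, with at most 109 counts in a library, and Pdia6 overlaps Atp6v1c2, with at most 5. Use of strand in the counting is not stated, so reads of such overlaps cannot be assigned with certainty.

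OMVSSDC against ZJDC sets the 2 groups beside each other without PBSDC. With all 9 libraries in the fit, 0 chaperones were lower and 1 was higher, against 1.10% of all tested genes lower and 0.856% higher. By DESeq2, too, none of the 10 was lower. At an unadjusted p under 0.05, Hsp90b1 alone was lower (-0.29, adjusted p = 0.148). Libraries did not overlap for 2 of the 10, Hspa5 and Pdia6, against 24.0% of all tested genes. Hspa5 was 0.35 higher in OMVSSDC (SE 0.0685, adjusted p = 0.0386). This call was lost with the 2 groups alone in the fit (0.35, adjusted p = 0.18) and with each library left out in turn other than OMVSSDC replicate 3 (0.31 to 0.35, adjusted p from 0.0779 to 0.187). Pdia6 was 0.22 higher (adjusted p = 0.0905) and Sdf2l1 0.50 higher (adjusted p = 0.103), neither past the threshold. The median was -0.02 over the 10 chaperones and 0.01 over all tested genes.

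The spread within OMVSSDC was not the same in direction for every chaperone. Hspa5, Pdia6, Sdf2l1 and Creld2 were higher in replicates 1 and 2 than in replicate 3, whereas Hsp90b1, Calr, Pdia3 and Manf were lower in them. Canx and Pdia4 showed no such split, since replicate 3 lay between the others for Canx and close to replicate 1 for Pdia4. Without replicate 3, 4 chaperones were lower in OMVSSDC than in ZJDC: Hsp90b1 at -0.49, Manf at -0.30, Calr at -0.27 and Pdia3 at -0.20. A further 4 were higher, Sdf2l1 at 0.70, Hspa5 at 0.42, Creld2 at 0.29 and Pdia6 at 0.27. Over all genes, 3296 were then lower and 3243 higher, in place of 127 and 99 with all libraries. With replicate 3 as the only OMVSSDC library, Hspa5 was at 0.20 against ZJDC.

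The signalling genes of the unfolded protein response were, by count, higher more often than lower. Beside this and the following lists, 33.4% of all tested genes were higher and 30.2% lower in OMVSSDC than in PBSDC. In ZJDC these shares were 27.6% and 27.1%. The median log2 fold changes of all tested genes were 0.05 in OMVSSDC and 0.01 in ZJDC. Of 16 tested genes of this list, 7 were higher and 3 lower in OMVSSDC, with a median of 0.05, and 7 were higher and 2 lower in ZJDC, with a median of 0.09. In ZJDC, 4 were lower without OMVSSDC replicate 3. In that setting 4099 of all 11761 tested genes were lower in ZJDC, in place of 3130 of 11568. Ern1, the gene of the sensor IRE1, had a log2 fold change of 1.57 in OMVSSDC and 1.38 in ZJDC against PBSDC. Xbp1, whose message IRE1 splices, reached 193 ± 3.99 CPM in OMVSSDC, 189 ± 6.51 CPM in ZJDC and 157 ± 5.08 CPM in PBSDC (SD, n = 3 each), differences of 0.30 and 0.27 that passed the test. Gene counts do not separate its spliced form. Ddit3 (CHOP) rose by 2.39 and 2.01, Trib3 by 2.49 and 1.82, Ppp1r15a (GADD34) by 1.97 and 1.98, Creb3l2 by 1.86 and 1.63, and Atf4 by 0.84 and 0.63, in OMVSSDC and ZJDC in turn. With replicate 3 as the only OMVSSDC library, Atf4 was at 0.52 and Trib3 at 1.83, against 2.74 for Trib3 without replicate 3. Ddit3, Trib3, Ppp1r15a and Atf4 belong to the arm that starts at the kinase PERK, which other kinases of the translation factor eIF2 also feed.

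Of the other factors that act on the chaperone promoters, Atf6, Atf6b and the subunits of NF-Y, none was higher in either group than in PBSDC. Atf6 had 374 ± 55.7 CPM in OMVSSDC, 429 ± 16.6 CPM in ZJDC and 442 ± 9.10 CPM in PBSDC. Its difference of -0.24 in OMVSSDC passed narrowly (adjusted p = 0.0456) and was -0.02 with replicate 3 as the only OMVSSDC library, and the call was lost whenever 1 library other than OMVSSDC replicate 3 was left out (adjusted p up to 0.144). Atf6b was lower by 0.41 and 0.46 in OMVSSDC and ZJDC, a call that library size alone as scaling ended for OMVSSDC (adjusted p = 0.0624). Nfyc, a subunit of the factor NF-Y that binds CCAAT, had 12.1 ± 1.33 CPM in OMVSSDC, 15.96 ± 0.521 CPM in ZJDC and 39.4 ± 1.45 CPM in PBSDC, with log2 fold changes of -1.71 and -1.31. The other 2 subunits, Nfya and Nfyb, did not pass in either comparison, with 0.02 and 0.07 in OMVSSDC and 0.04 and 0.05 in ZJDC. Eif2ak3 (PERK), Mbtps1 and Mbtps2 (the proteases that release ATF6) and Creb3 did not pass in either comparison, with differences of -0.19 to -0.09 in OMVSSDC and -0.30 to 0.14 in ZJDC.

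Other folding factors of the ER were, by count, higher more often than lower. The shares of all tested genes were 33.4% higher and 30.2% lower in OMVSSDC, and 27.6% and 27.1% in ZJDC. Of 34 tested genes of this list, 15 were higher and 5 lower in OMVSSDC (median 0.24), and 12 were higher and 6 lower in ZJDC (median 0.10). In ZJDC, 11 were lower without OMVSSDC replicate 3, when 4099 of all 11761 tested genes were lower, in place of 3130 of 11568. Sil1, which exchanges the nucleotide of BiP, had log2 fold changes of 1.49 in OMVSSDC and 1.24 in ZJDC, and the disulfide isomerase Pdia5 had 1.19 and 0.82. Dnajb11 and Dnajc3, J-domain partners of BiP, were at -0.64 and -0.62 in OMVSSDC and -0.73 and -0.52 in ZJDC. Other genes of both kinds, named here after their values were seen, did not all share these directions. Dnajc10, with a J-domain, was higher in both groups (0.48 and 0.42). Dnajb9 was higher in OMVSSDC (0.63, adjusted p = 0.0478) and did not pass in ZJDC (0.57, adjusted p = 0.0776), and its OMVSSDC value was 0.21 without replicate 3. Dnajc1 was higher in ZJDC (0.55, adjusted p = 0.0147) and did not pass in OMVSSDC (0.23). Hyou1, which also exchanges the nucleotide of BiP, did not pass in either (0.14 and -0.14). In the windows of these other folding factors the ERSE was present in 2 of 42 (4.76%).

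**Figure D5:**
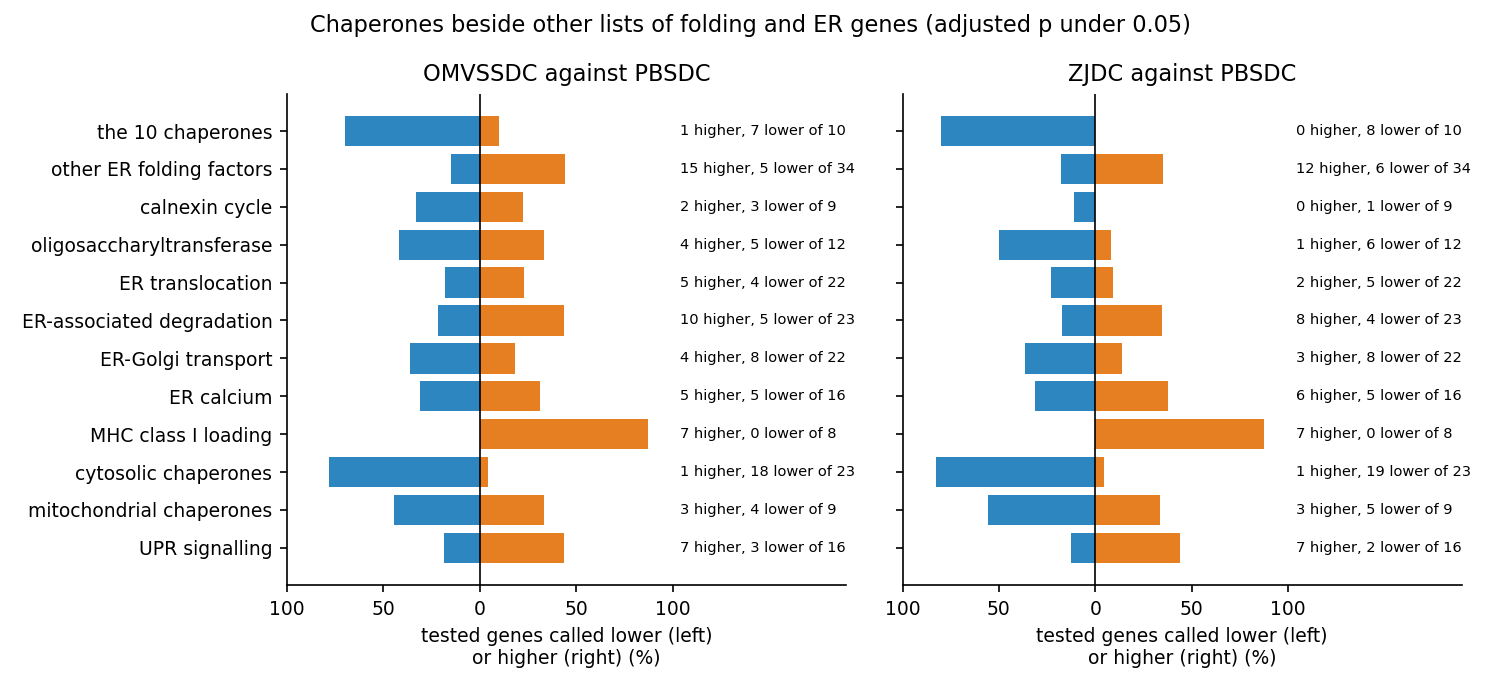
Percentage of the tested genes of each list that were called lower (bars to the left) or higher (bars to the right) than in PBSDC, for OMVSSDC (left panel) and ZJDC (right panel). The 10 chaperones have 1 higher and 7 lower genes in OMVSSDC and 0 and 8 in ZJDC, MHC class I loading has 7 higher and 0 lower in each, and cytosolic chaperones have 1 higher and 18 or 19 lower. Among all tested genes, not drawn, 33.4% were higher and 30.2% lower in OMVSSDC, and 27.6% and 27.1% in ZJDC.

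Along the path of a glycoprotein the lists were mixed. Their counts stand beside 33.4% of all tested genes higher and 30.2% lower in OMVSSDC, and 27.6% and 27.1% in ZJDC. Counts without OMVSSDC replicate 3 stand beside 4584 of all 11761 tested genes higher and 4229 lower in OMVSSDC. For ZJDC these were 4143 and 4099. With all libraries they were 3866 and 3492 of 11568 in OMVSSDC, and 3193 and 3130 in ZJDC. Of 9 tested calnexin cycle genes, 2 were higher and 3 lower in OMVSSDC, and 0 and 1 in ZJDC. Without OMVSSDC replicate 3 they were 4 and 3 in OMVSSDC, and 2 and 3 in ZJDC, and with any 1 library left out other than that replicate, 1 gene was lower in each comparison. Uggt1, which returns unfolded glycoproteins to calreticulin and calnexin, was lower by 0.65 and 0.47, while Mcfd2 (0.67) and Man1b1 (0.34) were higher in OMVSSDC and did not pass in ZJDC (0.29 and 0.17). Of 12 genes of the oligosaccharyltransferase, which attaches the sugars, 4 were higher and 5 lower in OMVSSDC, and 1 and 6 in ZJDC. Leaving out OMVSSDC replicate 3 gave 2 higher and 8 lower in ZJDC, and leaving out OMVSSDC replicate 1 or 2 or PBSDC replicate 2 gave 2 higher in OMVSSDC. Dad1 (-0.76 and -0.71) and Magt1 (-0.47 and -0.43) were lower in both groups, Tusc3 was higher in both (0.84 and 0.49), and Krtcap2 was higher in OMVSSDC (0.54) and did not pass in ZJDC (0.23). Between OMVSSDC and ZJDC themselves, 0 genes of these lists passed by edgeR with all libraries. Without OMVSSDC replicate 3, 5 calnexin cycle genes were higher and 2 lower in OMVSSDC than in ZJDC, and 8 genes of the oligosaccharyltransferase were higher and 0 lower. Over all 11761 tested genes, 3243 were then higher and 3296 lower in OMVSSDC than in ZJDC, in place of 99 and 127 of 11568. Against PBSDC, with replicate 3 as the only OMVSSDC library, Mcfd2 was at 0.29, Tusc3 at 0.44, Man1b1 at 0.16 and Krtcap2 at 0.21. Of 22 translocation genes, 5 were higher and 4 lower in OMVSSDC, and 2 and 5 in ZJDC, with Ssr1 at -0.67 and -0.64, Ssr2 at -0.43 and -0.39 and Srpr at 0.51 and 0.30. Without OMVSSDC replicate 3, 10 translocation genes were higher and 5 lower in OMVSSDC, and 4 and 9 in ZJDC. In OMVSSDC 3 were higher without OMVSSDC replicate 1 or 2 or PBSDC replicate 1 or 2, and in ZJDC 3 were lower without PBSDC replicate 1 or 3 or ZJDC replicate 2. Of 23 genes of ER-associated degradation, 10 were higher and 5 lower in OMVSSDC, and 8 and 4 in ZJDC. In ZJDC, 7 were lower without OMVSSDC replicate 3, and 4 to 5 were higher without any 1 PBSDC library or without ZJDC replicate 2 or 3. Edem2, which marks glycoproteins for degradation, had 1.19 and 0.82, Sel1l 0.55 and 0.54, Herpud1 -0.52 and -0.52 and Nploc4 -0.46 and -0.35.

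Transport and calcium genes were divided too, as were all tested genes (33.4% higher and 30.2% lower in OMVSSDC, 27.6% and 27.1% in ZJDC). Of 22 ER to Golgi transport and retrieval genes, 4 were higher and 8 lower in OMVSSDC, and 3 and 8 in ZJDC. Without OMVSSDC replicate 3 they were 8 and 9 in OMVSSDC, and 4 and 13 in ZJDC. Of all 11761 tested genes, 4584 were then higher and 4229 lower in OMVSSDC, and 4143 and 4099 in ZJDC. Kdelr2, a receptor that brings chaperones such as BiP back to the ER, was lower by 0.50 and 0.42, and Sec31a by 0.66 and 0.36. Sec24d was higher by 0.85 and 0.68, and Surf4 by 0.47 in OMVSSDC, where replicate 3 alone gave 0.27; in ZJDC it did not pass (0.17). Of 16 ER calcium genes, 5 were higher and 5 lower in OMVSSDC, and 6 and 5 in ZJDC. Atp2a2, the pump that fills the store which calreticulin buffers, was at -0.61 and -0.51, and Tmco1 at -0.68 and -0.63. Itpr2, a release channel, was at 1.08 and 1.13, and Rcn1 at 0.69 and 0.48.

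MHC class I loading, the process in which calreticulin and ERp57 take part, moved in the opposite direction to them. Of 8 tested genes of this list, which does not include the 10 chaperones, 7 were higher and 0 lower in each of OMVSSDC (median 1.32) and ZJDC (median 0.92). Tapbp, the gene of tapasin to which ERp57 is bonded, had 447 ± 54.8 CPM in OMVSSDC, 339 ± 23.5 CPM in ZJDC and 170 ± 10.4 CPM in PBSDC (SD, n = 3 each). H2-K1 rose by 1.68 and 1.44 and H2-D1 by 2.16 and 1.497. Reads of these class I heavy chains can be shared between near-identical genes, so their values are uncertain.

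Chaperones of the cytosol were lower as well. Of 23 tested, 18 were lower and 1 higher in OMVSSDC (median -0.71), and 19 were lower and 1 higher in ZJDC (median -0.52). Cct6a (-1.11 and -0.92) and Tcp1 (-0.76 and -0.59) of the chaperonin and Hsph1 (-1.03 and -0.59) were lower, and Hspa4l (1.16 and 1.30) was the one that was higher. None of their 29 promoter windows held the ERSE. Of 9 mitochondrial chaperones and proteases, 3 were higher and 4 lower in OMVSSDC, and 3 and 5 in ZJDC. Lonp1 was at 1.34 and 1.14, Hspa9, the mitochondrial relative of Hspa5, at 0.32 and 0.40, Hspd1 at -0.55 and -0.42 and Hspe1 at -0.56 and -0.37.

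Over the 9 libraries, the genes whose log2 CPM ran closest to the mean standardised level of the 10 chaperones were Ppa1 (Pearson r = 0.992), Siglec1 (0.991), Vsir (0.991), Dnajb11 (0.985) and C1qc (0.985), among genes of at least 20 CPM. The 9 points share their groups and scaling, so the values describe a likeness in these libraries. Of Gene Ontology terms in the deposited table, all 10 chaperones carry endoplasmic reticulum (9.72% of annotated tested genes) and 8 carry endoplasmic reticulum lumen (0.690%). Protein disulfide isomerase activity is given for Pdia3, Pdia4, Pdia6 and Creld2 (0.108%), and unfolded protein binding for Hspa5, Hsp90b1, Calr and Canx (0.648%).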

How the data were processed

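Total RNA of 9 DC2.4 libraries was sequenced. Per the submitters' processing notes, the tools were fastp 0.22.0, HISAT2 2.1.0 and HTSeq 0.9.1. Per the file headers, the deposited table gives whole-number read counts per gene, which the authors did not normalize, and FPKM; each deposited FPKM equalled count over gene length and library total within a relative deviation of 1.9e-07. For the genome build, a name was not given in the sources used here. Columns were assigned by the sample titles, with 0 value columns left over.

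Counts were tested in R 4.3.3 with edgeR 4.0.16 (filterByExpr, minimum count 10 and minimum total 15; TMM; robust quasi-likelihood fit of all 9 libraries, 6 residual degrees of freedom; two-sided). Benjamini-Hochberg adjustment ran over 11568 genes with a threshold of 0.05. The standard error is the log2 fold change over the square root of F. CPM are TMM-scaled. Alternatives used DESeq2 1.42.0 and limma 3.58.1, other scalings and filters, and left-out libraries. The steps were run on simulated data, whose outcome is not given here. The simulated spread came from ZJDC and PBSDC alone, so it does not cover the spread within OMVSSDC.

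The members and the gene lists were chosen with earlier results of these data known. Genes named beside the members are all of the unfolded protein response list and, from each other list, the 3 with the smallest adjusted p in OMVSSDC against PBSDC and up to 2 passing in the opposite direction. Ddit3 has a second line with 0 counts, left untested. Promoter sequences are from RefSeq (GRCm38.p6), whose coordinates were not mixed with the table's. Intervals were not computed, and depth bears on counting error only.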

Additional observations from a re-analysis of the deposited data

How the results depend on the processing

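The settings tried were RLE scaling, library size alone, no filter and a stricter filter (50 counts in 3 libraries), DESeq2, limma-voom, the replicate block, only the 2 groups compared, a removed trend on gene length, each library left out, and OMVSSDC replicates 1 and 2 left out together, where the lone OMVSSDC library is assumed to vary like the other groups. Over 190 recomputed fold changes of the chaperones per comparison, 183 kept direction and side of the threshold for OMVSSDC against PBSDC, 176 for ZJDC against PBSDC and 162 for OMVSSDC against ZJDC. These totals include the setting with the lone OMVSSDC library, whose side of the threshold rests on that assumption. Causes of the changes below were not tested.

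Signs turned in 16 cases, none of them past the threshold. For OMVSSDC against PBSDC, Pdia6 was -0.046 with the length trend removed, -0.000728 to 0.1005 with 1 library left out and -0.069 without OMVSSDC replicates 1 and 2, and Sdf2l1 was -0.363 to 0.022 with 1 library left out, above 0 without OMVSSDC replicate 3. For ZJDC against PBSDC, Hspa5 was -0.027 with the length trend removed. For OMVSSDC against ZJDC, leaving out OMVSSDC replicates 1 and 2 gave 0.023 for Hsp90b1, 0.105 for Calr, 0.0079 for Pdia3, -0.073 for Sdf2l1, -0.165 for Creld2 and 0.13 for Manf. There Canx was 0.019 with library size alone, Pdia4 was -0.003856 with RLE, -0.004063 with DESeq2 and -0.078 with the length trend removed, and Creld2 was -0.035 with the length trend removed.

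Leaving out 1 library gave 1 to 2 chaperones higher in OMVSSDC than in PBSDC, the 2 without OMVSSDC replicate 3, when 4584 of all genes were higher and 4229 lower. For OMVSSDC against ZJDC it gave 0 to 4 chaperones lower and 0 to 4 higher, 0 to 3296 genes lower and 0 to 3243 higher, the highest always without OMVSSDC replicate 3. In that comparison 804 genes were lower and 766 higher with DESeq2, 0 and 0 with only the 2 groups compared, 230 lower with the length trend removed and 214 lower without OMVSSDC replicates 1 and 2. With the replicate block 0 genes were lower, 0 were higher and 0 chaperones were higher, Hspa5 having an adjusted p of 0.142; with only the 2 groups compared, 0 chaperones were higher. The labels state no pairing by replicate number. As deviations from their group means, same-numbered libraries of different groups correlated between -0.388 and 0.089. Libraries of different numbers correlated between -0.199 and 0.326. With 3 libraries in a group, these correlations cannot tell whether libraries of the same number were paired. Library size alone moved the median of all genes in OMVSSDC against PBSDC to 0.18 and the split to 2819 lower and 4672 higher; with the length trend removed it was 4121 and 3327, and for ZJDC against PBSDC 3821 and 2792.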
